A study of Mus musculus with 8 samples.

Results

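The metallothioneins Mt1 and Mt2, their metal-sensing transcription factor Mtf1, and the zinc and manganese transporters Slc30a1, Slc39a1 and Slc39a14 were followed through the mouse alveolar macrophage line MH-S, 6 genes taken by symbol from the 17518 listed. Polyadenylated RNA was sequenced from 8 libraries in 3 groups: cells given PBS (control, n = 3), cells given the macrophage-activating bacterial lipopolysaccharide (LPS, n = 2), and cells exposed to LPS with RCMNs, nanoparticles designed to respond to reactive oxygen species (LPS+RCMNs, n = 3). In the last group LPS was at 100 ng/mL and RCMNs at 1 µg/mL. The dose of LPS alone, the exposure times, the metal content of the nanoparticles and whether RCMNs were tried without LPS are not stated in the labels. Nothing states that replicates were separate cultures, so p-values reflect only how far these samples differ, which could be technical variation.

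Metallothioneins are small, cysteine-rich proteins that bind zinc and copper and buffer the free metal in the cytosol. When cytosolic zinc is high, MTF1, the factor encoded by Mtf1, binds metal response elements and drives Mt1, Mt2 and Slc30a1, and it is also known to repress the importer gene Slc39a10. Slc30a1 encodes ZnT1, which exports zinc across the plasma membrane, whereas Slc39a1 and Slc39a14 encode the importers ZIP1 and ZIP14, and ZIP14 also carries manganese and iron. In liver, LPS and interleukin-6 are known inducers of metallothioneins and of Slc39a14.

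Macrophage markers summed to 4150 to 6540 CPM (counts per M, that is mega, of scaled library size) in every library, with Lyz2 alone at 1970 to 3820 CPM. However, 2 of the 10, Siglecf and Car4, which mark resident alveolar macrophages, stayed below 1 CPM throughout. Marco read 0 to 0.139 CPM in control and at most 1.32 CPM in any library. Total counts were 18.6 to 21.2 M per library, and 3 counts, the most that a count of 0 allows, correspond to 0.130 to 0.182 CPM (counting error only). Several features of the libraries touch the results that follow. Both LPS libraries had a length-dependent shift: the rank correlation across genes of the LPS versus control log2 fold change with transcript length was -0.58, and that of LPS+RCMNs versus LPS was 0.59, against -0.09 for LPS+RCMNs versus control. They also held red blood cell transcripts, with erythroid markers summing to 4360 and 5620 CPM, against 0.658 to 34.1 CPM in the other 6 libraries. Within their groups, 2 libraries stood apart. Control replicate 1 had a chi-square per degree of freedom of 44.5 and 47.4 against the other controls, and LPS+RCMNs replicate 2 had 35.5 and 42.7 against its group, where the remaining pairs in those groups gave 1.93 and 2.82. The pair of LPS libraries lay between, at 12.5. Less RNA per cell and fewer cells of a kind cannot be told apart in bulk samples.

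Per transcript length, Mt1 was the most abundant of the 6 genes in every library. In the controls its mean level was 308 ± 114 FPKM (SD, n = 3), followed by Mt2 at 93.4 ± 74.5, Slc39a14 at 38.5 ± 5.46, Slc39a1 at 33.3 ± 0.924, Mtf1 at 4.17 ± 0.118 and Slc30a1 at 3.48 ± 2.27 FPKM (SD, n = 3 each). The ranges of the neighbours Slc39a14 (32.2 to 41.7 FPKM) and Slc39a1 (32.3 to 34.1 FPKM) overlapped, as did those of Mtf1 (4.03 to 4.24 FPKM) and Slc30a1 (0.860 to 4.86 FPKM). All 6 genes passed the filter on low counts. In LPS versus control 2 of the 6 were called at an adjusted p of 0.05 (quasi-likelihood test of edgeR), 1 higher and 1 lower, against a background of 63.4% of all 11911 genes tested (31.4% higher and 32.1% lower). In LPS+RCMNs versus LPS 3 were called, 2 higher and 1 lower, against a background of 59.3% (29.8% higher and 29.5% lower). In LPS+RCMNs versus control 0 of the 6 were called, against a background of 7.56% (4.33% higher and 3.23% lower). There, 2 of the 6 had an unadjusted p under 0.05, with edgeR and with DESeq2 alike, and DESeq2 also called 0. The comparisons share the LPS or the control libraries, so their values are not independent of one another.

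**Figure D1:**
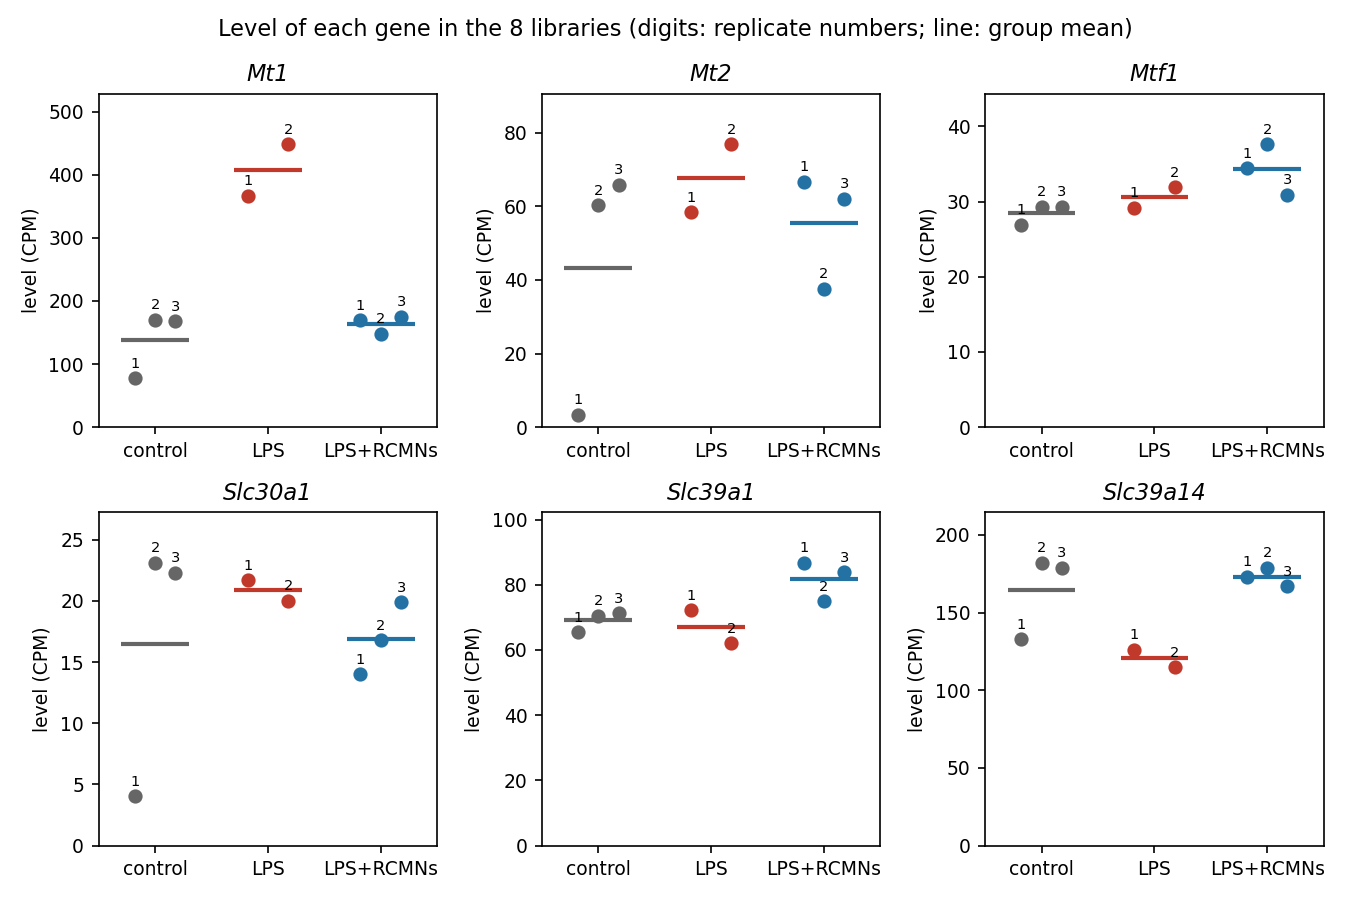
Level of each of the 6 genes in CPM (vertical axes, each from 0) in the control, LPS and LPS+RCMNs libraries, with 1 point per library, the replicate number above it and a line at the group mean. Both LPS libraries are highest for Mt1 and lowest for Slc39a14, and control replicate 1 lies far below the other controls for Mt2 and Slc30a1.

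Mt1 rose with LPS and was back near control with RCMNs. Mt1 (gene ID 17748) lies on chromosome 8 at 94178883 to 94180327 (GRCm38.p6), and its transcript, at 495 bases by the length implied from the deposited values, is longer than those of 1.25% of tested genes. Its level was 77.2, 170 and 168 CPM in control replicates 1 to 3, 367 and 448 CPM in LPS, and 169, 148 and 175 CPM in LPS+RCMNs. Both LPS libraries were above all others, and the LPS+RCMNs libraries overlapped the controls. The log2 fold change was 1.56 ± 0.28 (SE) for LPS versus control (adjusted p = 0.00108) and -1.31 ± 0.28 for LPS+RCMNs versus LPS (adjusted p = 0.00315). For LPS+RCMNs versus control it was 0.25 ± 0.26, with a 95% interval of -0.33 to 0.83 (adjusted p = 0.623). The rise was no smaller than that of 93.6% of all tested genes, and Mt1 also sits among the shortest of them. With the trend of each library on length removed, the LPS versus control value was -0.07 (adjusted p = 0.848), and that of LPS+RCMNs versus LPS was 0.19 (adjusted p = 0.602), so neither call remained. With the trend removed and without both libraries that stood apart, the values were -0.36 (adjusted p = 0.00188) and 0.27 (adjusted p = 0.0089), called in the opposite direction.

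Mt2, the other metallothionein expressed in these cells, did not pass the test in any of the 3 comparisons, and 1 library set its spread. Mt2 (gene ID 17750) lies on chromosome 8 at 94172618 to 94173567, 5315 bases from Mt1, and its implied length of 507 bases is close to that of Mt1. Its level was 3.42, 60.3 and 65.8 CPM in control, 58.4 and 76.8 CPM in LPS, and 66.7, 37.6 and 62.0 CPM in LPS+RCMNs. Control replicate 1, on 79 counts, was far below all 7 other libraries, and those 7 overlapped between groups. The log2 fold change was 0.65 ± 0.80 for LPS versus control (adjusted p = 0.501; 95% interval -1.15 to 2.45) and -0.29 ± 0.80 for LPS+RCMNs versus LPS (adjusted p = 0.775). Without both libraries that stood apart these became 0.15 (adjusted p = 0.234) and -0.10 (adjusted p = 0.454). When the length trend was removed as well, Mt2 was called lower in LPS than in control, at -1.50 (adjusted p = 4.78e-07), and higher in LPS+RCMNs than in LPS, at 1.42 (adjusted p = 7.07e-07). How reads shared by these related genes were divided is not stated in the labels, so the split between them is uncertain.

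As a pair, Mt1 and Mt2 summed to 80.6, 231 and 234 CPM in control, 425 and 525 CPM in LPS, and 236, 186 and 237 CPM in LPS+RCMNs. Mt1 made up most of the pool everywhere. Its share of the summed FPKM was 95.8, 74.3 and 72.4% in control, 86.5 and 85.7% in LPS, and 72.2, 80.2 and 74.3% in LPS+RCMNs. Both genes have nearly the same length, and the share was higher in both LPS libraries than in every other library except control replicate 1. The difference was 5.27 percentage points for LPS minus control (exact two-sided permutation test, p = 0.6) and -10.5 points for LPS+RCMNs minus LPS (exact permutation p = 0.2), where 3 against 2 libraries cannot go below 0.1. Without control replicate 1 the first difference was 12.8 points (exact permutation p = 0.333). That is the lowest p that 2 against 2 libraries allow, so this test could not have called a difference.

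Mtf1, which encodes the zinc sensor, was not called in any of the 3 comparisons. The gene (gene ID 17764) lies on chromosome 4 at 124802549 to 124849800, and its long transcript, 7581 bases, exceeds those of 94.6% of tested genes. Its level was 26.9, 29.3 and 29.3 CPM in control, 29.2 and 31.9 CPM in LPS, and 34.4, 37.6 and 30.9 CPM in LPS+RCMNs. The LPS+RCMNs libraries were all above the controls, and the LPS libraries overlapped both groups. For LPS+RCMNs versus control the log2 fold change was 0.27 ± 0.10 (adjusted p = 0.165). It was 0.10 ± 0.12 for LPS versus control, with a 95% interval of -0.16 to 0.36 (adjusted p = 0.479), and 0.17 ± 0.12 for LPS+RCMNs versus LPS (adjusted p = 0.247). The first LPS value depends on the scale. It was 0.91 with the length trend removed (adjusted p = 0.000598) and -0.31 by limma on log2(FPKM + 1) (adjusted p = 0.0334), a scale without TMM on which the median of all genes was -0.33. The LPS+RCMNs versus LPS value was likewise -0.58 (adjusted p = 0.00701) with the length trend removed and 0.46 (adjusted p = 0.00563) by limma.

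Slc30a1, the gene of the zinc exporter ZnT1, was low in the same control library as Mt2. The gene (gene ID 22782) lies on chromosome 1 at 191906697 to 191913248, with an implied transcript of 5196 bases. Its level was 4.03, 23.1 and 22.3 CPM in control, 21.7 and 20.0 CPM in LPS, and 14.0, 16.8 and 19.9 CPM in LPS+RCMNs. Control replicate 1 was the lowest library, on 93 counts, and the LPS+RCMNs libraries were all below LPS and below the other controls. The log2 fold change was 0.34 ± 0.55 for LPS versus control (adjusted p = 0.603), -0.30 ± 0.55 for LPS+RCMNs versus LPS (adjusted p = 0.652) and 0.04 ± 0.49 for LPS+RCMNs versus control (adjusted p = 0.975). Without both libraries that stood apart they were -0.07 (adjusted p = 0.671), -0.32 (adjusted p = 0.0679) and -0.39 (adjusted p = 0.0691). With the length trend also removed, LPS versus control was called at 0.52 (adjusted p = 0.00836) and LPS+RCMNs versus LPS at -0.91 (adjusted p = 0.000273).

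**Figure D2:**
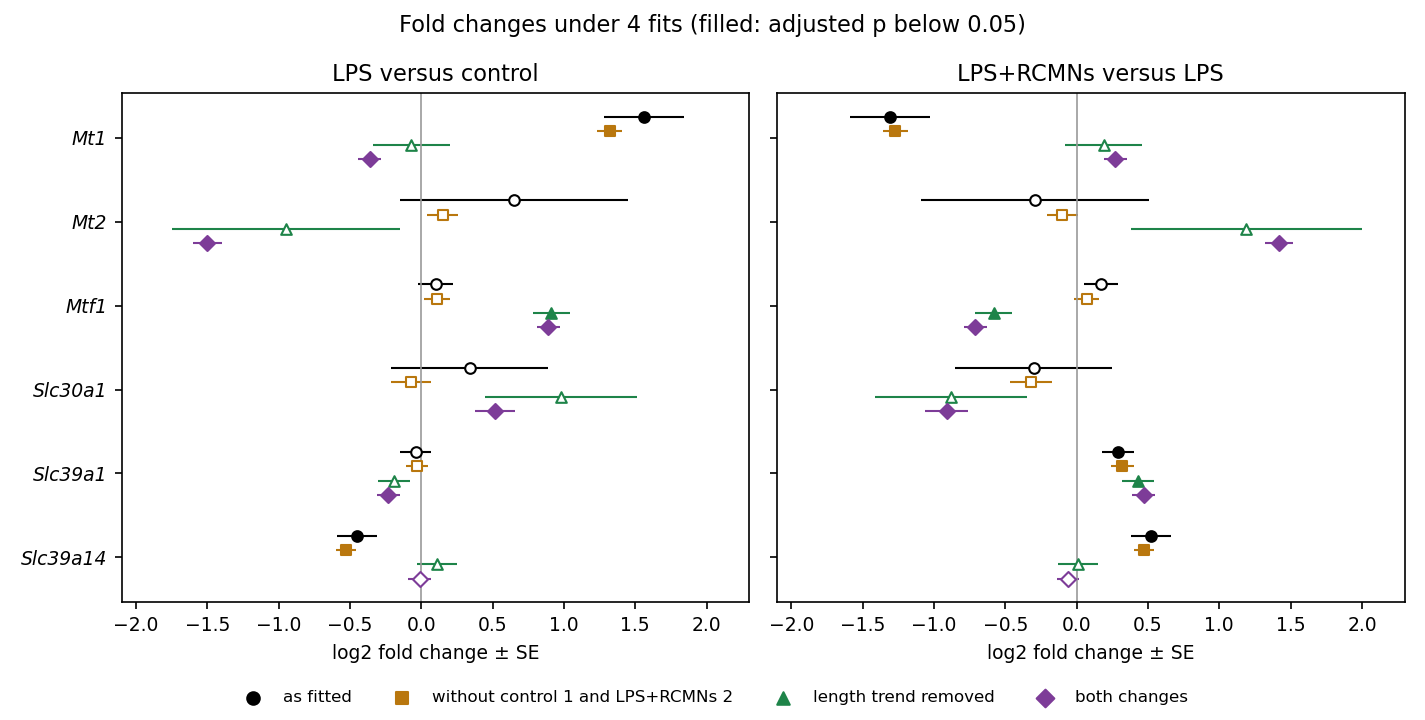
Log2 fold change with its SE (horizontal axis) of each gene in LPS versus control (left) and LPS+RCMNs versus LPS (right), as fitted, without control replicate 1 and LPS+RCMNs replicate 2, with the length trend removed, and with both changes; filled symbols passed an adjusted p of 0.05. Mt1 moves from 1.56 to -0.36 and from -1.31 to 0.27 across the fits. Slc39a1 stays filled in the 4 fits shown on the right, but that call was lost in 10 of all 19 alternatives run.

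The 3 genes that MTF1 is known to drive were low together in control replicate 1. Against the mean of the other controls, Mt2 was 17.9-fold lower (log2 difference -4.16), Slc30a1 5.52-fold lower (-2.47) and Mt1 2.19-fold lower (-1.13). Among the 11911 tested genes, 4 lay further below than Mt2, 26 further below than Slc30a1 and 359 further below than Mt1, and the lowest 1% of all genes began at -1.64. Mtf1 and Slc39a1 were both at -0.12 and Slc39a14 was at -0.45, inside the central 90% of genes (-0.88 to 0.69). Slc39a10, which encodes the zinc importer ZIP10, deviated the other way. It read 467, 140 and 133 CPM in control, and its log2 difference of 1.77 was exceeded by 34 genes. In LPS+RCMNs replicate 2, against the other LPS+RCMNs libraries, Mt2 (-0.77), Mt1 (-0.21) and Slc39a10 (0.69) deviated the same way by less, and Slc30a1 was at 0.00. There, 7.12% of tested genes lay at or below Mt2, 28.7% at or below Mt1 and 97.4% at or below Slc39a10, so Mt1 was not unusual in that library. The deviations of both libraries correlated at r = 0.38 across genes, which are not independent replicates. These libraries were chosen for standing apart and the genes with these values known, so the figures describe 1 library and carry no test. The integrated stress factor Atf4 was also high in control replicate 1, with a log2 difference of 1.39. Erythroid markers were low in both libraries that stood apart. They summed to 0.824 CPM in control replicate 1, against 20.7 and 20.4 CPM in the other controls. In LPS+RCMNs replicate 2 they summed to 0.658 CPM, against 30.3 and 34.1 CPM in its group. The part of these differences in the result was not tested.

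**Figure D3:**
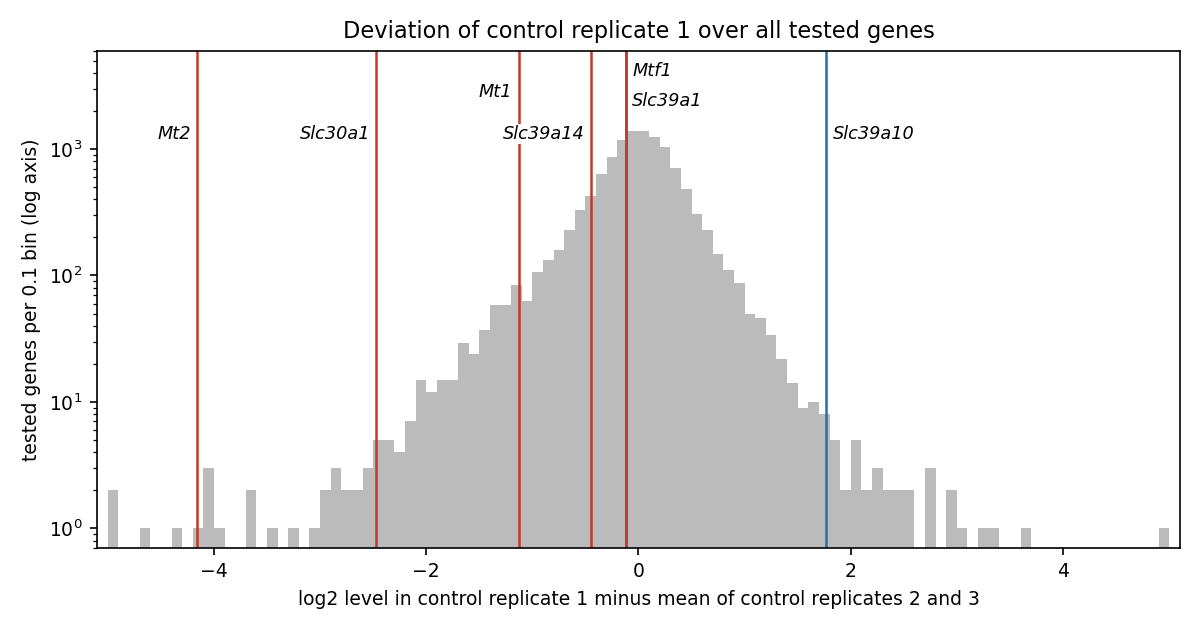
Number of tested genes (vertical axis, log scale) by the log2 level in control replicate 1 minus the mean of control replicates 2 and 3 (horizontal axis, bins of 0.1, ends pooled at ±5), with lines at the 6 genes and at Slc39a10. Mt2 and Slc30a1 lie in the far left tail at -4.16 and -2.47, and Slc39a10 in the right tail at 1.77.

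The starts of these 3 genes are shown because MTF1 acts through the metal response element, whose core was searched as TGCACNC or TGCGCNC on both strands, from 250 bases before to 30 bases after a RefSeq transcript start (GRCm38.p6, + strand). Capitals mark each core as it reads on the printed strand. The windows cover chr8:94178839-94179118 for Mt1, chr8:94172368-94172647 for Mt2 and chr1:191906531-191906810 for Slc30a1. The transcript starts are at 94179089, 94172618 and 191906781, and those of Mt1 and Slc30a1 lie downstream of the gene starts given above, so positions are counted from the transcript start.
Mt1: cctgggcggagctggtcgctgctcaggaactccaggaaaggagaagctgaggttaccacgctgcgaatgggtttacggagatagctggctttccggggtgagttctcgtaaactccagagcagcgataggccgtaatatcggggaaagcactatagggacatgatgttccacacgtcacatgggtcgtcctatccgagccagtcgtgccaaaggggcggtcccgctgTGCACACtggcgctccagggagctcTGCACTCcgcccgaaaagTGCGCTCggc
Mt2: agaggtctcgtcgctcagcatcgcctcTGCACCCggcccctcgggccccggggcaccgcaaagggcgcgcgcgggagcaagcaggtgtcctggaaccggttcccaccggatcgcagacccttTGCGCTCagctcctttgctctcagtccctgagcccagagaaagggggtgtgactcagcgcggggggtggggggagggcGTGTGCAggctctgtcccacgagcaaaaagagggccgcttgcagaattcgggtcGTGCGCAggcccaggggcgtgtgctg
Slc30a1: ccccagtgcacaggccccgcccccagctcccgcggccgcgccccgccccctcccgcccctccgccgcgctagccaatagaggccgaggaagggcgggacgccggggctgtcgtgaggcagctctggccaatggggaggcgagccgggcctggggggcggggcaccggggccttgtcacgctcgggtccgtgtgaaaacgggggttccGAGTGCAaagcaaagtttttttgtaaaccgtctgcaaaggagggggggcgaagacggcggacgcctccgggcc
Mt1 held 3 cores, with first bases at -23, 3 and 21 from the RefSeq start used here. Mt2 held 4, at -223, -128, -50 and 5, those at -50 and 5 on the reverse strand. Which starts these cells use was not tested. A core placed after a RefSeq start therefore need not lie inside their transcripts, and sites outside a window were not searched. Slc30a1 held 1, at -43 on the reverse strand. Of 32851 RefSeq windows of this length, 24.1% held at least 1 core, 1.73% at least 3 and 0.405% at least 4. In the 250 bases before the start alone, Mt1 held 1, Mt2 held 3 and Slc30a1 held 1, where 21.4% of windows held at least 1 and 1.26% at least 3; the 30 bases after the start were added after these counts were seen. The windows of Mtf1 and Slc39a1 held 0, as did both windows of Slc39a10, and Slc39a14 is named only. The antioxidant response core TGACNNNGC, present in 11.5% of windows, had 1 match each in Mt2 (-79, overlapping a match to the AP-1 site TGANTCA, a motif in 7.46% of windows), Slc30a1 (-82) and Slc39a1 (-63). The STAT palindrome TTCNNNGAA, in 7.83% of windows, was found in 0 of the 5 windows of the 6 genes and in 1 window of Slc39a10. A match is a description of letters, and no match says only that the letters are not in that window.

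Slc39a14, which encodes the zinc and manganese importer ZIP14, fell with LPS and rose again with RCMNs. The gene (gene ID 213053) lies on chromosome 14 at 70303467 to 70351452, with an implied transcript of 4750 bases, longer than those of 80.3% of tested genes. Its level was 133, 182 and 179 CPM in control, 126 and 115 CPM in LPS, and 173, 179 and 167 CPM in LPS+RCMNs. Both LPS libraries were below all others, with control replicate 1 next. The log2 fold change was -0.45 ± 0.14 for LPS versus control (adjusted p = 0.0177) and 0.52 ± 0.14 for LPS+RCMNs versus LPS (adjusted p = 0.00981), while LPS+RCMNs versus control was at 0.07, with a 95% interval of -0.21 to 0.34 (adjusted p = 0.796). The LPS versus control call was lost without LPS replicate 1 (-0.48, adjusted p = 0.0636), LPS replicate 2 (-0.34, adjusted p = 0.159), control replicate 2 (-0.33, adjusted p = 0.0858) or control replicate 3 (-0.34, adjusted p = 0.0839), and the LPS+RCMNs versus LPS call without LPS replicate 2 (0.43, adjusted p = 0.0904). With the length trend removed the values were 0.11 (adjusted p = 0.562) and 0.01 (adjusted p = 0.971), and neither was called.

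Slc39a1, which encodes the zinc importer ZIP1, was higher with RCMNs than with LPS alone by a small amount. The gene (gene ID 30791) lies on chromosome 3 at 90248190 to 90253613, and its implied length of 2296 bases exceeds those of 37.7% of tested genes. Its level was 65.4, 70.5 and 71.3 CPM in control, 72.2 and 62.0 CPM in LPS, and 86.7, 75.0 and 83.9 CPM in LPS+RCMNs. All LPS+RCMNs libraries were above all others, and LPS overlapped control. The log2 fold change was 0.29 ± 0.11 for LPS+RCMNs versus LPS (adjusted p = 0.0426), 0.25 ± 0.09 for LPS+RCMNs versus control (adjusted p = 0.159) and -0.04 ± 0.11 for LPS versus control (adjusted p = 0.752). With the length trend removed, LPS+RCMNs versus LPS was at 0.43 and still called (adjusted p = 0.0123). That call was lost in 10 of 19 alternatives: without LPS replicate 2 (0.15, adjusted p = 0.354), LPS+RCMNs replicate 1 (0.24, adjusted p = 0.125), LPS+RCMNs replicate 3 (0.25, adjusted p = 0.143), control replicate 2 (adjusted p = 0.0881) or control replicate 3 (adjusted p = 0.0894), and with a replicate block (adjusted p = 0.106), with DESeq2 (0.26, adjusted p = 0.0647), with median-ratio size factors (adjusted p = 0.0621), with no filter (adjusted p = 0.0624) and with the compared groups alone (adjusted p = 0.0619). Without both libraries that stood apart, the gene was called in LPS+RCMNs versus LPS at 0.32 (adjusted p = 0.00388) and in LPS+RCMNs versus control at 0.29 (adjusted p = 0.0194).

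The other zinc transporters moved in mixed directions. Of 9 other exporters of the ZnT family (Slc30a), 6 were tested. In LPS versus control 2 of these rose and 4 fell, and in LPS+RCMNs versus LPS 4 rose and 1 fell, with median log2 fold changes of -0.37 and 0.48 against -0.04 and 0.03 over all genes tested, and 0 were called in LPS+RCMNs versus control. Over all tested genes, 31.4% were higher and 32.1% lower in the first comparison, and 29.8% and 29.5% in the second. In the third, 4.33% were higher and 3.23% lower. Removing the length trend left 1 exporter that rose and 2 that fell, then 2 that rose and 1 that fell. In that fit, 45.4% and 40.4% of all 11911 tested genes were called in these comparisons. They split into 2773 higher and 2638 lower, then 2282 higher and 2527 lower. Slc30a5, whose protein loads zinc into the early secretory pathway, went from 144 to 173 CPM in control to 110 and 111 CPM in LPS and 145 to 175 CPM in LPS+RCMNs. Its log2 fold changes were -0.54 ± 0.12 (adjusted p = 0.00294) and 0.55 ± 0.12 (adjusted p = 0.00281). Slc30a9, a mitochondrial zinc exporter, fell by 0.76 ± 0.11 (adjusted p = 0.000265) and rose by 0.57 ± 0.11 (adjusted p = 0.00162). Both genes were called under every alternative run in both comparisons. The fall of Slc30a4 (-0.48 ± 0.18) and the rise of Slc30a6 (0.56 ± 0.11) in LPS were not called with the length trend removed, Slc30a4 at 0.16 and Slc30a6 at 0.24.

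Slc30a10, which encodes a manganese exporter of the same family, had 0 counts in all 3 control libraries. It read 0.909 and 1.09 CPM in LPS and at most 0.0506 CPM, 1 count in all, in LPS+RCMNs. The LPS mean of 0.999 CPM was at least 7.16-fold higher than control, taking 3 counts per library as the floor (adjusted p = 0.000554), and 60.9 times the LPS+RCMNs level with a 95% counting interval of 10.2 to 2480 (adjusted p = 0.00105). It rests on 33 counts over both LPS libraries.

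Of 12 other importers of the ZIP family (Slc39a), 8 were tested. In LPS versus control 3 rose and 3 fell, in LPS+RCMNs versus LPS 4 rose and 1 fell, and in LPS+RCMNs versus control 2 rose and 0 fell. The medians were -0.04, 0.50 and 0.01, against -0.04, 0.03 and -0.02 over all tested genes. Of all tested genes, 31.4% were higher and 32.1% lower in the first comparison, and 29.8% and 29.5% in the second. In the third, 4.33% were higher and 3.23% lower. Once the length trend was removed, the first counts of importers were 2 rose and 1 fell and the second 2 rose and 2 fell. That fit called 45.4% and 40.4% of all tested genes, split by direction as given for the exporters. Slc39a4, a plasma membrane importer taken up from the cell surface when zinc is plentiful, was at 5.49 to 6.16 CPM in control and rose to a mean of 11.6 CPM in LPS+RCMNs (log2 fold change 0.99 ± 0.15, adjusted p = 0.00494), a call made under every alternative that tested it. Slc39a7, which releases zinc from the endoplasmic reticulum, rose by 0.44 ± 0.10 in LPS (adjusted p = 0.00311), a call lost with the surface on length and level removed (0.08), and Slc39a13, a zinc transporter of the Golgi and its vesicles, rose by 0.81 ± 0.21 (adjusted p = 0.00866), a call lost without LPS replicate 2. Slc39a9 fell by 0.72 ± 0.10 in LPS (adjusted p = 0.000241) and rose by 0.68 ± 0.10 with RCMNs (adjusted p = 0.000388), values of -0.10 and 0.11 with the length trend removed, neither called. The fall of Slc39a10 in LPS (-1.32 ± 0.52, adjusted p = 0.0492) rests on control replicate 1 and was -0.42, not called, without it. Slc39a8, the manganese and zinc importer closest to Slc39a14, was not tested, with at most 0.182 CPM in any library.

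Among 6 other manganese transporters, 5 were tested, and 2 of them rose with LPS in the presence and absence of RCMNs. Slc11a1, the phagosomal metal pump NRAMP1 that withholds manganese and iron from microbes, was at 105 to 112 CPM in control, 202 and 219 CPM in LPS and a mean of 223 CPM in LPS+RCMNs. The LPS groups did not overlap the controls, and the log2 fold changes against control were 0.95 ± 0.08 for LPS (adjusted p = 1.47e-05) and 1.04 ± 0.08 for LPS+RCMNs (adjusted p = 0.000145). Slc11a2, the divalent metal importer DMT1, went from 31.8 to 37.6 CPM in control to 84.1 and 88.3 CPM in LPS and a mean of 66.9 CPM in LPS+RCMNs, at 1.28 ± 0.11 (adjusted p = 1.11e-05) and 0.92 ± 0.10 (adjusted p = 0.00117). Both were called in both comparisons under every alternative. The list counts were 3 rose and 1 fell in LPS versus control and 1 rose and 2 fell in LPS+RCMNs versus LPS. In LPS+RCMNs versus control they were 2 rose and 0 fell. The lists overlap. Slc30a10 is among the 3 that rose and the 2 that fell, and is counted among the zinc exporters too. Slc39a8, not tested, is also on the list of importers. The shares of all tested genes were 31.4% higher and 32.1% lower, then 29.8% and 29.5%, then 4.33% and 3.23%. Atp2c1, the Golgi calcium and manganese pump, fell in LPS at -0.72 ± 0.14 (adjusted p = 0.00157), a call lost with the length trend removed (-0.20).

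**Figure D4:**
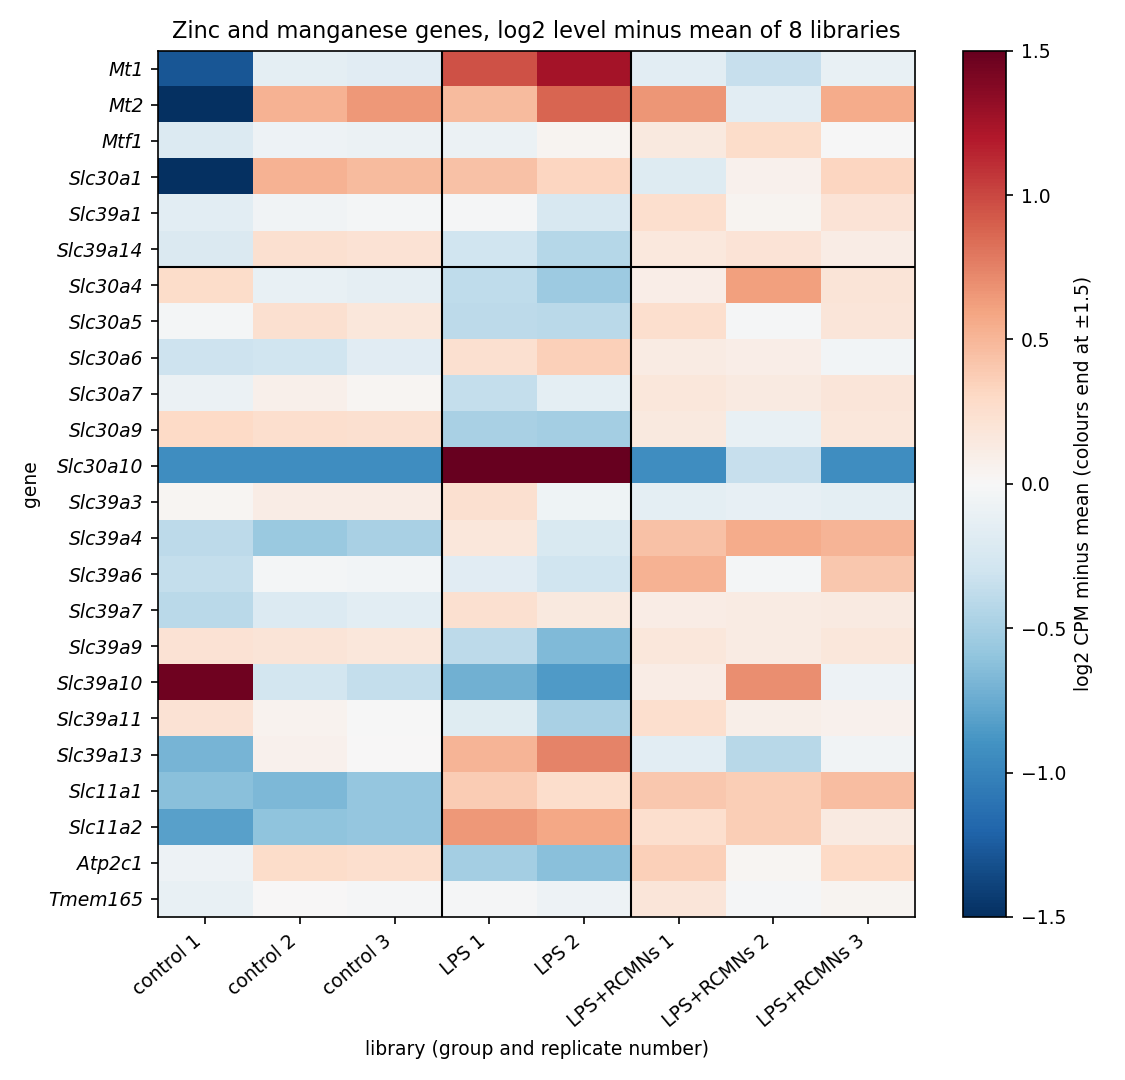
Log2 CPM of the 6 genes (above the line) and of the other tested zinc and manganese transporters (below) in each of the 8 libraries, minus the gene's mean over the libraries; colours end at ±1.5. Control replicate 1 is the lowest library (blue) for Mt1, Mt2 and Slc30a1 and the highest (red) for Slc39a10, and Slc11a1 and Slc11a2 are low in all 3 controls and higher in the 5 libraries with LPS.

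Copper shares the metallothioneins, and 12 of 13 copper-handling genes were tested. In LPS versus control 9 rose and 1 fell (median log2 fold change 1.08), in LPS+RCMNs versus LPS 1 rose and 8 fell (median -0.76), and in LPS+RCMNs versus control 2 rose and 0 fell (median 0.20). Over all tested genes the medians were -0.04, 0.03 and -0.02. The shares called were 31.4% higher and 32.1% lower in the first comparison, and 29.8% and 29.5% in the second. In the third they were 4.33% higher and 3.23% lower. Several of the genes that rose have short transcripts, among them Cox17 (391 bases) and Atox1 (465 bases). With the length trend removed the counts were 3 rose and 0 fell in LPS versus control and 2 rose and 3 fell in LPS+RCMNs versus LPS. Of all 11911 tested genes, that fit called 2773 higher and 2638 lower, then 2282 higher and 2527 lower. Sco2, an assembly factor of cytochrome c oxidase, rose by 1.95 ± 0.20 in LPS (adjusted p = 3.19e-05) and was called under every alternative that tested it. The copper chaperone Atox1 rose by 1.88 ± 0.09 (adjusted p = 1.01e-06) and the chaperone Cox17 by 1.88 ± 0.16 (adjusted p = 1.39e-05), and neither was called with the length trend removed (0.18 and 0.01). Slc31a2, a copper transporter of endosomes and lysosomes, was higher in LPS+RCMNs than in control by 0.92 ± 0.16 (adjusted p = 0.00921).

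Genes of the zinc-binding alarmin calprotectin were highest in LPS, at a low level. S100a9 had 0 counts in every control and LPS+RCMNs library and 2.18 and 2.67 CPM in LPS, at least 17.3-fold higher than control and 16.0-fold higher than LPS+RCMNs against the floor of 3 counts per library. S100a8 rested on 3 counts in control, 72 in LPS and 21 in LPS+RCMNs, and LPS was 48.0 times control with a 95% counting interval of 15.8 to 238. S100a8 was also higher in LPS+RCMNs than in control, 7.59 times with an interval of 2.27 to 39.7 (adjusted p = 0.0418), a call lost with the length trend removed, without both libraries that stood apart, and without each single library except LPS+RCMNs replicate 1. Both genes are abundant in neutrophils and monocytes, and the LPS libraries also held the erythroid transcripts given above. Their part in this result was not tested. Of the other zinc buffers, sensors and channels, Mt4, Gpr39 and Tmem163 were not tested, at no more than 0.182 CPM, Mt3 was not among the listed genes, and the lysosomal channel gene Mcoln1 was not called.

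Of 10 factors known to act on metallothionein or Slc39a14 transcription, all were tested, and 1 rose and 6 fell in LPS versus control (median -0.54), 6 rose and 2 fell in LPS+RCMNs versus LPS (median 0.49), and 1 rose and 3 fell in LPS+RCMNs versus control (median -0.36), against the shares and medians of all genes given for the copper list. Some of those that fell in LPS have long transcripts, among them Atf6 (7413 bases) and Nr3c1 (6374 bases). After removal of the length trend, 1 rose and 7 fell in LPS versus control, and 4 rose and 1 fell in LPS+RCMNs versus LPS. Of all 11911 tested genes, 2773 were higher and 2638 lower in that fit, then 2282 higher and 2527 lower. The cytokine Il6 was at 0.413 CPM in control, 120 CPM in LPS and 3.88 CPM in LPS+RCMNs on average. The genes of its receptor moved the other way. Il6st, the signalling chain gp130, averaged 77.2 CPM in control, 20.7 CPM in LPS and 57.0 CPM in LPS+RCMNs, with log2 fold changes of -1.90 ± 0.11 (adjusted p = 2.14e-06) and 1.46 ± 0.11 (adjusted p = 9.14e-06), and Il6ra, the ligand-binding chain, averaged 62.8, 19.5 and 47.3 CPM. Nr3c1, the glucocorticoid receptor, was lower in LPS+RCMNs than in control by a log2 fold change of -0.51 ± 0.10 (adjusted p = 0.0191), a call lost without control replicate 2, control replicate 3, LPS+RCMNs replicate 1 or LPS+RCMNs replicate 3 (-0.51 to -0.56).

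The genes most like each of the 6 were taken as the 3 with the highest Pearson correlation of log2 CPM over the 8 libraries, among tested genes whose mean level was 5 FPKM or more. For Mt1 they were Gnl2 (r = 0.995), Kti12 (0.993) and Rbm34 (0.993), which also were highest in LPS and lowest in control replicate 1, although Gnl2 spanned only 105 to 170 CPM. For Mt2 they were Noct (0.992), Sfpq (0.972) and Eif1a (0.964), and for Slc30a1 they were Slc29a2 (0.972), Pim3 (0.967) and Sinhcaf (0.954), and all 6 had their lowest level in control replicate 1. Without both libraries that stood apart these correlations were 0.80, 0.62 and 0.48 for Mt2 and 0.72, 0.50 and 0.45 for Slc30a1. Those of Mt1 were all 0.99. Because these genes were picked on the same libraries, sharing the highest or lowest library largely follows from the choice. For Mtf1 the genes were Lrrc47 (0.952), Fbxo33 (0.903) and Map4k5 (0.901), for Slc39a1 Nckap1l (0.981), Prkx (0.974) and Slc7a2 (0.973), and for Slc39a14 0610010F05Rik (0.993), Fmnl1 (0.990) and Tm9sf3 (0.989). Among the 6 genes themselves, Mt2 and Slc30a1 had the highest correlation, 0.95, which was -0.31 without both libraries, and Mt1 and Slc39a14 had -0.48, which was -0.99 without them. The points share their libraries and the length trend, and the values are descriptions over few libraries.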

How the data were processed

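Messenger RNA of MH-S cells was enriched with oligo(dT) beads, per the labels' protocols. The authors deposited expected counts and FPKM values for each gene in each library, on the mm10 build per the submitters' processing notes. The aligner, counting tool and annotation are not stated in the labels or headers. Of the deposited estimated counts above 0, 77.8% lay more than 0.001 away from whole numbers. Table columns were tied to samples through the code in each description, and 4 per-sample columns whose code belongs to no sample were left out.

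Counts were rounded, low genes were removed by filterByExpr, and TMM factors (0.779 and 0.803 for LPS, 1.05 to 1.13 otherwise) set the library sizes used for CPM. edgeR 4.0.16 (quasi-likelihood test, limma 3.58.1, R 4.3.3) was fitted to all 8 libraries in 3 groups, with Benjamini-Hochberg adjustment over 11911 genes. Log2 CPM has a prior count of 2. Transcript length was computed from the ratio of deposited count to FPKM. Coordinates and start windows are from RefSeq tables of GRCm38.p6, the assembly named mm10 (99.7% of gene IDs matched; 5 of the 6 genes had a window). The procedure was run on simulated data with the same spread for every gene and library, and a length shift was simulated only in a separate run. Libraries that stand apart were not simulated, so those runs do not cover that feature of these data. Named genes were the 6 genes, up to 3 called genes of smallest p per list, comparison and direction, and 3 like genes for each of the 6. Slc39a8, Mcoln1, Atf4 in control replicate 1, and genes not tested were named after their values were seen. The genes and lists were chosen with earlier results of these data known.

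Alternatives were the compared groups alone, a replicate block, median-ratio size factors, no filter, a filter at 5 FPKM in 2 libraries, DESeq2 1.42.0, limma on log2(FPKM + 1), a length trend or a length and level surface removed (loess, span 0.4), each library left out, and both libraries that stood apart left out. A fit without those 2 and without the length trend was chosen after seeing the data.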

Additional observations from a re-analysis of the deposited data

How the results depend on the processing

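The calls of Mt1 in both LPS comparisons held in 16 of 19 alternatives each, all of which left the length trend in. Every fit that removed the length trend or the surface lost or reversed them. In LPS+RCMNs versus control 0 of the 6 genes were called, except Slc39a1 without both libraries that stood apart (1 called). That fit called 25.5% of all tested genes there. With the length trend removed, the LPS versus control log2 fold changes were -0.07 for Mt1, -0.95 for Mt2, 0.11 for Slc39a14 and 0.16 for Slc30a4, and those of LPS+RCMNs versus LPS were 0.19 for Mt1, 1.19 for Mt2, -0.58 for Mtf1 and 0.41 for Cox17. With the surface on length and level removed they were -0.32 (Mt1), -1.03 (Mt2), 0.21 (Slc30a4) and -0.04 (Cox17), then 0.48 (Mt1), 1.31 (Mt2), -0.80 (Mtf1) and 0.49 (Cox17), and 4572 genes were called in LPS+RCMNs versus LPS, against 7063. With the length trend removed and without both libraries that stood apart, LPS versus control gave -0.36 (Mt1), -1.50 (Mt2), 0.32 (Slc30a4), 0.15 (Slc39a10) and -0.06 (Cox17), LPS+RCMNs versus LPS gave 0.27 (Mt1), 1.42 (Mt2), -0.71 (Mtf1), -0.06 (Slc39a14), -0.03 (Slc30a4) and 0.41 (Cox17), and LPS+RCMNs versus control gave -0.08 (Mt1), -0.08 (Mt2), -0.39 (Slc30a1) and -0.07 (Slc39a14). That fit called 5 of the 6 genes in each LPS comparison. Of all tested genes it called 63.6% in LPS versus control and 64.9% in LPS+RCMNs versus LPS. In LPS+RCMNs versus control it called 3201 genes. Without both libraries and with no length correction, Slc30a1 was at -0.07 in LPS versus control and -0.39 in LPS+RCMNs versus control, Slc39a14 was at -0.06 in the latter, and 3017 genes were called there, against 901. By limma on log2(FPKM + 1), Mtf1 was at -0.31, Slc39a14 at -0.90, Slc39a7 at -0.03 and Slc39a4 at -0.07 in LPS versus control. Mt2 was at 0.10, Slc30a1 at 0.09 and Slc11a2 at 0.02 in LPS+RCMNs versus LPS. In LPS versus control limma called 4 of the 6 genes, against 67.5% of all tested genes. The split of all called genes there was 2113 higher and 5925 lower in LPS versus control, against 3736 and 3818, and 5448 and 2117 in LPS+RCMNs versus LPS, against 3555 and 3508. The length trend fit called 1 of the 6 in LPS versus control, against 45.4% of all tested genes. DESeq2 called 1379 genes in LPS+RCMNs versus control.

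Leaving out each control or LPS+RCMNs library in turn, the genes called in LPS+RCMNs versus control ran from 322 to 1372. Of the 6 genes, 1 to 2 were called in LPS versus control, against 57.8% to 66.7% of all tested genes. In LPS+RCMNs versus LPS 2 to 3 were called, against 51.4% to 64.7%. With every library left out in turn, the Mt1 share for LPS+RCMNs minus control ran from -9.48 to 2.26 points. The log2 fold changes that turned ran from -0.07 to 0.72 (Slc30a1) and -0.12 to 0.12 (Slc39a1) in LPS versus control, and in LPS+RCMNs versus control from -0.01 to 0.45 (Mt1), -0.16 to 0.83 (Mt2), -0.40 to 0.39 (Slc30a1) and -0.04 to 0.17 (Slc39a14). Where a fit leaves 1 LPS library, it is assumed to vary like the other groups. The cause was not tested.

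Whether the replicate numbers pair the samples is not stated in the labels. The deviations of same-numbered libraries from their group means correlated at -0.34 to 0.20. This cannot decide the question, because deviations within such small groups oppose one another and the libraries that stood apart carry different numbers. In the fit with a replicate block, 1 of the 6 genes was called in LPS versus control, against 56.9% of all tested genes. Slc39a14 had an adjusted p of 0.0551 there, and Slc39a1 was not called in LPS+RCMNs versus LPS (adjusted p = 0.106). In that fit, 454 genes were called in LPS+RCMNs versus control.

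The LPS group has 2 libraries, both with the length shift and the erythroid transcripts, so treatment and these features cannot be told apart in LPS versus control or LPS+RCMNs versus LPS. Slc30a10, S100a8 and S100a9 rest on 0 to 3 counts in the control group, so their folds against control are bounds or wide intervals.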
